A study of Arabidopsis thaliana with 27 samples.

Results

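The phi and tau glutathione transferases of Arabidopsis thaliana were followed here across root cell types. The set was chosen by gene identifier and holds GSTF2 to GSTF14 (13 genes of the phi class) and GSTU1 to GSTU28 (28 genes of the tau class), which makes 41 of the 34262 gene entries in the count tables. The members described in most detail are GSTF6 (AT1G02930), GSTF7 (AT1G02920), GSTU12 (AT1G69920), GSTU10 (AT1G74590), GSTF2 (AT4G02520), GSTF3 (AT2G02930), GSTU13 (AT1G27130), GSTU1 (AT2G29490), GSTU4 (AT2G29460), GSTU24 (AT1G17170), GSTU25 (AT1G17180), GSTU26 (AT1G17190), GSTU19 (AT1G78380), GSTF8 (AT2G47730), GSTF9 (AT2G30860), GSTF10 (AT2G30870) and GSTU17 (AT1G10370). No measured value entered the choice. Roots of the ecotype Col-0 were turned into protoplasts, which were sorted by their green fluorescent protein (GFP) before RNA sequencing. GFP marked atrichoblasts, the non-hair cells of the epidermis, under the GL2 promoter, cortex cells under the CORTEX promoter, and pericycle cells at the xylem poles in the enhancer trap line E3754. Each of the 3 cell types gave 9 libraries, 3 of them labelled mock (water), 3 labelled flg22 (a peptide of bacterial flagellin) and 3 labelled Pep1 (a plant damage peptide), and in each group the libraries carry the replicate numbers 1, 2 and 3. The sample labels give plants 10 d old, 1 mM elicitor and 1 h of treatment, whereas the series design gives 1 µM and sampling 2 h after treatment. For the sorted plants the methods of the study give a greater age than these labels do. Each cell type came from a single marker line, so that line and cell type cannot be told apart, and sorted protoplasts are cells without walls taken from pooled roots. The libraries are named below by their cell type, label and number. The study describes independent experiments for each line, and the measurements are given both between the labels and between the numbers.

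Glutathione transferases join the tripeptide glutathione to reactive compounds, which marks these for transport into the vacuole and breakdown there. The phi and tau classes are the large classes of plants and serve in the removal of herbicides and other foreign compounds, in the handling of products of oxidative stress and in the carriage of small molecules. Many of their genes respond to pathogens, salicylic acid and reactive chemicals, and factors that bind the as-1 element (core TGACG) or the W-box are known to act on them. GSTF6 takes part in the synthesis of the phytoalexin camalexin, GSTF2 binds camalexin, GSTU24 and GSTU25 act on the explosive trinitrotoluene, GSTU13 is needed for indole glucosinolate products in pathogen defence, and GSTF12 (TT19) carries anthocyanins to the vacuole.

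Sequences are shown first for members on which the results turn. GSTF7 and GSTU12 were among the members with the largest differences between libraries of different number, and GSTU19 was an abundant member without a called difference between numbers. The 250 bases before the annotated start of these genes are printed 5′ to 3′ along the strand of the gene, in TAIR10.1 (RefSeq), with every match to the W-box letters TTGACC or TTGACT, on either strand, in capitals. No TGACG match lies in these 3 stretches.
GSTF7, chr1:659981-660230, minus strand: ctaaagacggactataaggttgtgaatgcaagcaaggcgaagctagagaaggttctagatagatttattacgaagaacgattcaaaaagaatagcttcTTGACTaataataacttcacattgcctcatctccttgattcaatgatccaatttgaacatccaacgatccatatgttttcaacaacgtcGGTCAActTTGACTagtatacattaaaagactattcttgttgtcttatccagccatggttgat
GSTU12, chr1:26335631-26335880, minus strand: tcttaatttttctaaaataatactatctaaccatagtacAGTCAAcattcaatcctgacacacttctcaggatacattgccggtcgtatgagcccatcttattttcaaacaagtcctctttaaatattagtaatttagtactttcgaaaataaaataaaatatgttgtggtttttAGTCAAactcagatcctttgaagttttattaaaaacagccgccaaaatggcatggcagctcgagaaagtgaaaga
GSTU19, chr1:29488008-29488257, minus strand: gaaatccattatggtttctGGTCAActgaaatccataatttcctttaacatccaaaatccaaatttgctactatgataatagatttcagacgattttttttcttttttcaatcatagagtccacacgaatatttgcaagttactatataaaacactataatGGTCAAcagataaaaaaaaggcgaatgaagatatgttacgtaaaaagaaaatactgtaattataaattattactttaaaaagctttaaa
The stretch of GSTF7 held 3 matches, the nearest 55 bases before the start, and those of GSTU12 and GSTU19 held 2 each. A W-box match lay before 21 of the 41 members (51.2%) and before 28.5% of 27098 protein-coding nuclear genes searched over the same length. TGACG lay before 14 members (34.1%) against 18.6% of genes, and the G-box CACGTG before 3 members (7.32%) against 6.52%. On 1 strand a W-box and a TGACG match cannot share the letters TGAC, since the next base differs. A match is a description of these letters and not a measured site.

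GSTF6 and GSTF7 are neighbours on chromosome 1, 1107 bases apart, and their coding sequences are 94.3% identical. The 150 coding bases from position 117 to 266, in which they differ most, are printed with the 15 differing bases in capitals.
GSTF6: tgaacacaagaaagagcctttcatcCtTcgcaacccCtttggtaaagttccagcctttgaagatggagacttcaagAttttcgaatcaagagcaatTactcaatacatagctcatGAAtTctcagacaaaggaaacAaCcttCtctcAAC
GSTF7: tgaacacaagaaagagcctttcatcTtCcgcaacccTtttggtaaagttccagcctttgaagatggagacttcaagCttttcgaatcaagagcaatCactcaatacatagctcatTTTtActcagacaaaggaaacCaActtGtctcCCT
Of the 100-base stretches of their annotated transcripts, 17 of 1087 for GSTF6 and 17 of 1114 for GSTF7 recur elsewhere in the genome, and no other member had any. Reads of 100 bases could therefore be placed on either gene over nearly all of its length. GSTF2 and GSTF3, on chromosomes 4 and 2, are the closest pair in coding sequence at 94.5% identity. Reads were counted without strand, so GSTF2, GSTF4, GSTF10, GSTF11, GSTF12, GSTU2, GSTU6, GSTU7 and GSTU10, which overlap a gene on the opposite strand in TAIR10.1, and GSTF8 and GSTU10, which overlap a gene on the same strand, cannot be told fully apart from those genes. GSTU17 and GSTU18 overlap each other.

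A library held 4172741 to 17188823 gene counts, of which mitochondrial genes took 21.9 to 42.0%. Differences below were tested on the counts in edgeR, and a gene counted as called where its p, adjusted by Benjamini-Hochberg over all nuclear genes tested in that comparison, was under 0.05. Fold changes are on the log2 scale and are given with their standard error (SE). Levels are counts scaled to library size (CPM) on TMM-scaled library sizes, and levels of different genes are compared only as RPKM, which is CPM per kilobase of exon. The markers GL2, AED3 and PHO1 stood highest in the cell types so labelled, AED3 only narrowly at its lowest. High GL2 was set by the sort, since its promoter drove the GFP of the epidermis line. GL2 stood at 77.8 to 335 CPM in the epidermis and at most 38.3 CPM elsewhere, AED3 at 113 to 325 CPM in the cortex and at most 112 CPM elsewhere, and PHO1 at 519 to 1499 CPM in the pericycle and at most 6.45 CPM elsewhere. The cortex marker CO2 had 0 counts in every cortex library, and the phloem gene SUC2 reached 17.0 to 142 CPM in the pericycle. Of 7 genes that report pattern-triggered immunity, 0 were called between elicitor and mock labels in any cell type, where at most 0.293% of all genes were. Against the libraries numbered 1, 5, 5 and 3 were higher in those numbered 3 in the epidermis, cortex and pericycle (3.64%, 6.62% and 0.447% of all genes). PER5, a peroxidase gene of that list, stood at 10.4 to 16.7 CPM in cortex libraries numbered 1, at 282 to 420 CPM in those numbered 2 and at 123 to 500 CPM in those numbered 3. These genes were thus called by number and not by label, and hardly any gene of any kind was called by label. Whether the labels name the treatment that each library received, or labels and numbers were exchanged on deposit, was not tested, and every value below holds for the libraries as labelled and numbered.

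Of the 41 members, 30 epidermis, 33 cortex and 33 pericycle entries passed the count filter, and 29 passed in all of them. GSTF4, GSTF5, GSTF11, GSTF12, GSTU2 and GSTU15 passed in none. GSTF11 had 0 counts in all 27 libraries, GSTU15 had 6 counts, GSTF12 had 29, GSTF4 had 30, GSTF5 had 46 and GSTU2 had 88. In the fit over all libraries 35 members passed. Together the members took 0.434 to 1.31% of the nuclear counts of a library.

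Expression was concentrated in few members. GSTF10 (ERD13, first described as a gene induced by dehydration) had the highest mean level over all 27 libraries, 1027 RPKM, which ranked above 99.9% of all nuclear genes. GSTU19, a major cytosolic member, followed at 873 RPKM, GSTF8, known for its early response to stress in roots, at 809 RPKM, and GSTU25 at 588 RPKM. GSTF6 had 353 RPKM and GSTU24 had 261 RPKM, so that these 6 genes made up 70.4% of the summed RPKM of the 41. The median member of the phi class had 8.40 RPKM and that of the tau class 35.4 RPKM. The order of the first 3 was not the same in each cell type. GSTF10 ranged from 371 to 2003 RPKM over the 9 epidermis libraries, GSTF8 from 609 to 1269 RPKM and GSTU19 from 327 to 1129 RPKM, so that neighbours in this order overlapped. At the other end GSTU21 had a mean of 1.28 RPKM, GSTF13 of 2.79 RPKM and GSTU16 of 3.38 RPKM.

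**Figure D1:**
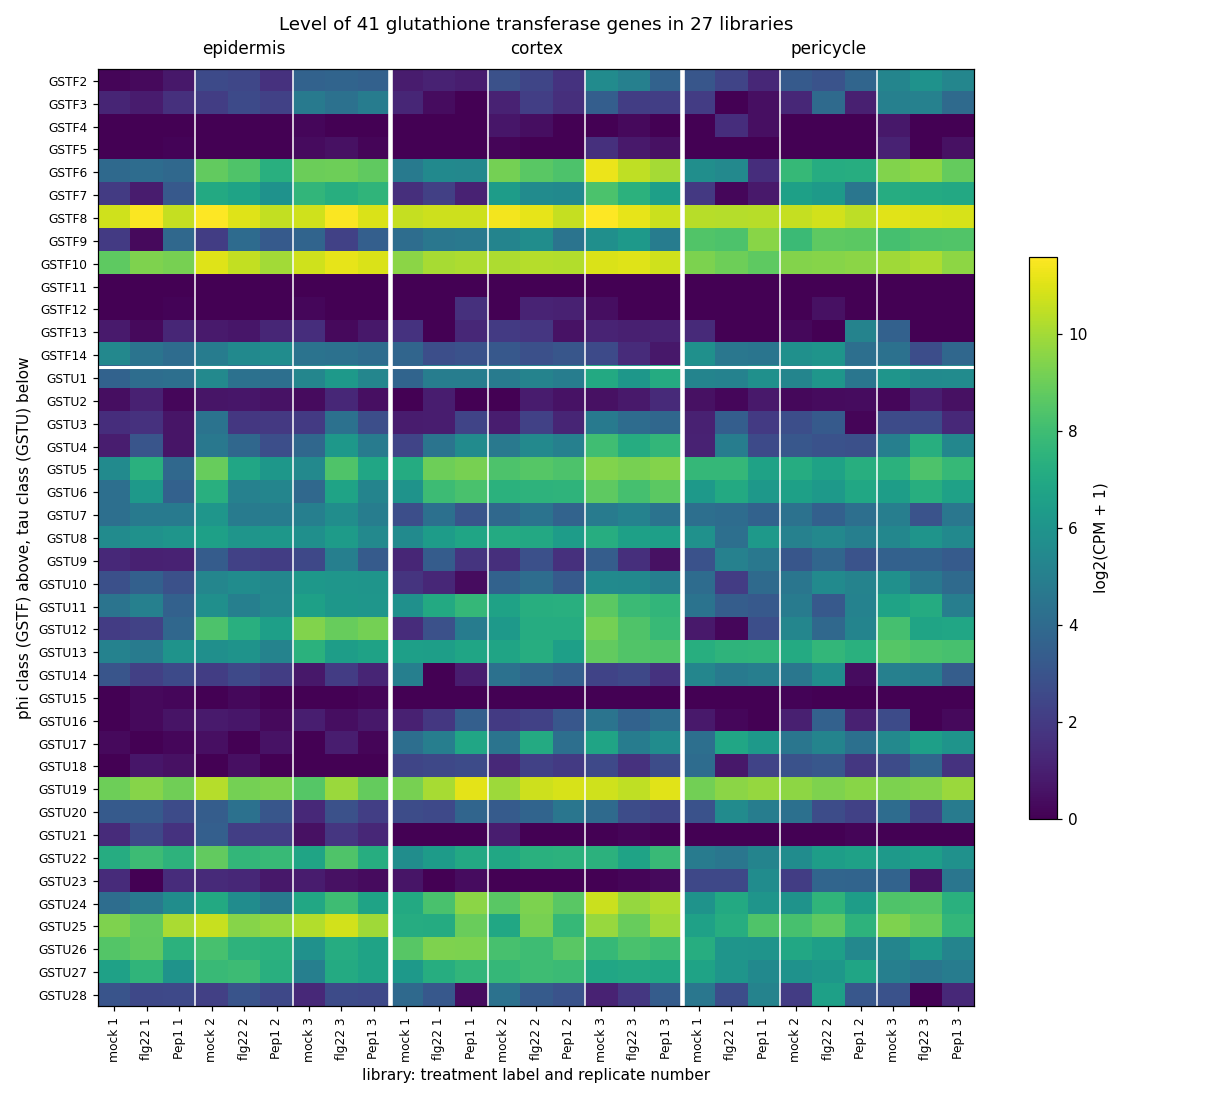
Level of each of the 41 members (rows) in each of the 27 libraries (columns, ordered by cell type, then replicate number, then label), as log2(CPM + 1) in colour. Rows such as GSTF6, GSTF7 and GSTU12 are higher in the libraries numbered 3 than in those numbered 1 within each cell type, whereas GSTF10, GSTF8 and GSTU19 are high throughout and GSTF11 is at 0.

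The first comparison asked whether the members differed between libraries labelled with an elicitor and those labelled mock. In edgeR 0 members were called in each of the 6 comparisons, and the share of all genes called in either direction was 0% for both labels in the epidermis, 0% for flg22 and 0.293% for Pep1 in the cortex, and 0% for flg22 and 0.0113% for Pep1 in the pericycle. An unadjusted p under 0.05 was found for 0 and 0 of 30 epidermis members (1.75% and 0.555% of all genes), for 1 and 8 of 33 cortex members (5.44% and 15.1%) and for 5 and 4 of 33 pericycle members (7.3% and 3.2%). Without the filter on low counts edgeR called 5 of 39 members for Pep1 in the cortex (3.38% of all genes then tested) and 0 in the other comparisons. DESeq2 called 2 of 33 members for Pep1 in the cortex (4.81% of all genes) and 1 of 33 for flg22 in the pericycle (1.66%). The smallest adjusted p belonged to GSTU19 in the cortex. GSTU19 stood at 594, 956 and 1730 CPM in the cortex libraries labelled mock and numbered 1, 2 and 3, at 1076, 1670 and 1412 CPM in those labelled flg22, and at 2236, 1913 and 2171 CPM in those labelled Pep1. The Pep1 libraries lay above all mock libraries there, with a log2 fold change of 1.10 (SE 0.28, adjusted p = 0.100 by edgeR), and DESeq2 gave 1.11 with an adjusted p of 0.00513. GSTF7 had -1.15 in the same comparison (SE 0.32, adjusted p = 0.125 by edgeR), which DESeq2 called at -1.13 with an adjusted p of 0.0397. The gene that DESeq2 called for flg22 in the pericycle was GSTF13, which had 0 counts in the 3 pericycle libraries labelled flg22 and 0.19 to 11.1 CPM in those labelled mock. In the epidermis 0 of 30 members had their 3 libraries labelled flg22 (1.82% of all genes) or Pep1 (0.98%) above their 3 mock libraries, and 0 had them below (3.01% and 0.88%). In the cortex 0 of 33 did so for flg22 (3.81% of all genes) and 1 for Pep1 (5.87%), and in the pericycle 1 for flg22 (5.69%) and 2 for Pep1 (5.87%). Below mock lay 0 and 0 members in the cortex (5.35% for flg22 and 12.3% for Pep1) and 2 and 1 in the pericycle (8.15% and 6.12%). Whether the label differences themselves differed between cell types was tested by an interaction over all 27 libraries. In edgeR 0 of 35 members passed for flg22 (0.047% of all genes) and 0 for Pep1 (0% of all genes), with 1 and 2 members at an unadjusted p under 0.05 (6.83% and 5.75%), and DESeq2 also called 0 (1.41% and 0.648%). Labels follow the facility number in the library titles in part in the epidermis and for Pep1 in the cortex. The cortex libraries labelled mock and flg22 share no facility number, and in the pericycle no label shares one with another. Label and facility number cannot be told apart in those comparisons. A test of the labels within 1 facility number that also holds the replicate number was not run.

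The next comparison set the replicate numbers against each other, in a fit that also held the label. If a number names an experiment, the libraries of that number in a cell type come from the same experiment. The p-values between numbers then cover the spread between libraries and not that between experiments. GSTF6, GSTF7 and GSTU12 were higher in the libraries numbered 3 than in those numbered 1 in every cell type, by log2 fold changes between 4.66 and 7.16. In the epidermis 10 of 30 members tested were higher (3.64% of all genes were) and 0 were lower (1.68%). In the cortex 15 of 33 were higher (6.62%) and 1 was lower (5.65%), and in the pericycle 4 of 33 were higher (0.447%) and 0 lower (0.141%). Between numbers 2 and 1, 5 members were higher in the epidermis (1.76% of all genes), 4 in the cortex (1.67%) and 2 in the pericycle (0.0904%), and 0 were lower (0.0187%, 0.22% and 0%). Between numbers 3 and 2, 7 members were higher in the cortex (0.958%) and 0 lower (1.04%), and 0 members were called in the epidermis (0.0874% of all genes in either direction) and in the pericycle (0%). Those counts of 0 go with 12 and 12 members at an unadjusted p under 0.05 (13.3% and 4.64% of all genes) and with 2 and 3 members in DESeq2 (3.24% and 0.729%). The comparisons of numbers 3 and 2 with number 1 share the libraries numbered 1. In all, 19 of the 35 members tested in some cell type were called between some pair of numbers (13.1% of all genes were), and 18 of them rose in every comparison that called them, with GSTU26 lower. Fewer cells of a responding type and less RNA per cell cannot be told apart in these sorted pools.

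The counts depended in part on single libraries. For numbers 3 against 1 the epidermis gave 6 members without flg22 replicate 3, mock replicate 1 or Pep1 replicate 3, and 13 at most. The cortex gave 9 without flg22 replicate 1, 10 without mock replicate 1 or mock replicate 3, and 17 at most, and the pericycle gave 3 to 6. For numbers 2 against 1 the epidermis gave 1 member without mock replicate 1 and 3 without flg22 replicate 1, and the pericycle gave 1 without either of these. For numbers 3 against 2 the cortex gave 0 without mock replicate 2 or Pep1 replicate 2, 1 without mock replicate 3, 3 without flg22 replicate 3 or Pep1 replicate 3, and 12 without mock replicate 1. The calls of GSTF6, GSTF7 and GSTU12 for numbers 3 against 1 were kept in all 3 cell types without any of the 9 libraries in turn.

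GSTF6 was low in every library numbered 1. Values per library are in CPM and follow the order mock, flg22, Pep1 throughout. In the cortex GSTF6 stood at 25.8, 43.7 and 40.9 CPM in the libraries numbered 1, at 573, 397 and 328 CPM in those numbered 2 and at 2426, 1442 and 1054 CPM in those numbered 3. The 3 cortex libraries labelled mock carry a single facility number, and the values of 25.8, 573 and 2426 CPM lie within it. In the epidermis GSTF6 stood at 14.6, 16.3 and 14.2 CPM, then at 447, 332 and 156 CPM, and then at 512, 515 and 434 CPM. Both later groups lay above the group numbered 1 there, and they overlapped each other, since the mock library numbered 2 exceeded the Pep1 library numbered 3. In the pericycle it stood at 52.0, 43.3 and 1.85 CPM, then at 220, 142 and 149 CPM, and then at 673, 780 and 464 CPM. The log2 fold change for number 3 against 1 was 5.32 in the cortex (SE 0.35, adjusted p = 1.71e-05 by edgeR), 5.0 in the epidermis (SE 0.34, adjusted p = 0.00057 by edgeR) and 4.66 in the pericycle (SE 0.65, adjusted p = 0.00195 by edgeR). For number 2 against 1 it was 4.26 in the epidermis (SE 0.33, adjusted p = 0.0028 by edgeR) and 3.48 in the cortex (SE 0.33, adjusted p = 0.000204 by edgeR), while 2.76 in the pericycle did not pass (SE 0.61, adjusted p = 0.206 by edgeR).

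GSTF7, the close copy of GSTF6 beside it, started lower. In the cortex it stood at 1.94, 3.52 and 1.19 CPM in the libraries numbered 1, at 82.7, 47.2 and 44.9 CPM in those numbered 2 and at 321, 176 and 92.4 CPM in those numbered 3, with no overlap between the groups. In the epidermis it stood at 3.00, 0.849 and 8.35 CPM, then at 130, 105 and 58.9 CPM, and then at 196, 155 and 191 CPM. In the pericycle it stood at 2.77, 0.136 and 0.739 CPM, then at 95.2, 79.1 and 22.6 CPM, and then at 146, 136 and 125 CPM. Each group numbered 3 lay wholly above the group numbered 2 here. For number 3 against 1 the log2 fold change was 6.38 in the cortex (SE 0.40, adjusted p = 1.71e-05 by edgeR), 5.51 in the epidermis (SE 0.64, adjusted p = 0.00314 by edgeR) and 7.16 in the pericycle (SE 0.78, adjusted p = 0.000334 by edgeR). For number 2 against 1 it was 4.80, 4.68 and 5.86 in the same order, and all of these were called.

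GSTU12, a tau member of chromosome 1 that lies beside GSTU11, had a like pattern. In the epidermis it stood at 3.22, 3.82 and 13.6 CPM in the libraries numbered 1, at 326, 156 and 93.5 CPM in those numbered 2 and at 673, 478 and 569 CPM in those numbered 3. In the cortex it stood at 1.80, 6.45 and 28.5 CPM, then at 74.4, 146 and 142 CPM, and then at 571, 337 and 224 CPM. In the pericycle it stood at 0.746, 0.136 and 5.91 CPM, then at 39.6, 14.03 and 36.7 CPM, and then at 284, 108 and 114 CPM. In all 3 cell types the 3 groups were ordered by number without overlap. For number 3 against 1 the log2 fold change was 6.40 in the epidermis (SE 0.70, adjusted p = 0.00271 by edgeR), 5.34 in the cortex (SE 0.78, adjusted p = 0.00132 by edgeR) and 6.98 in the pericycle (SE 0.85, adjusted p = 0.000739 by edgeR). GSTU12 and GSTF7 were the 2 members called for number 2 against 1 in every cell type, with GSTU12 at 4.31 in the pericycle (SE 0.77, adjusted p = 0.0429 by edgeR). Without pericycle flg22 replicate 1 or mock replicate 1 that last call was lost.

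**Figure D2:**
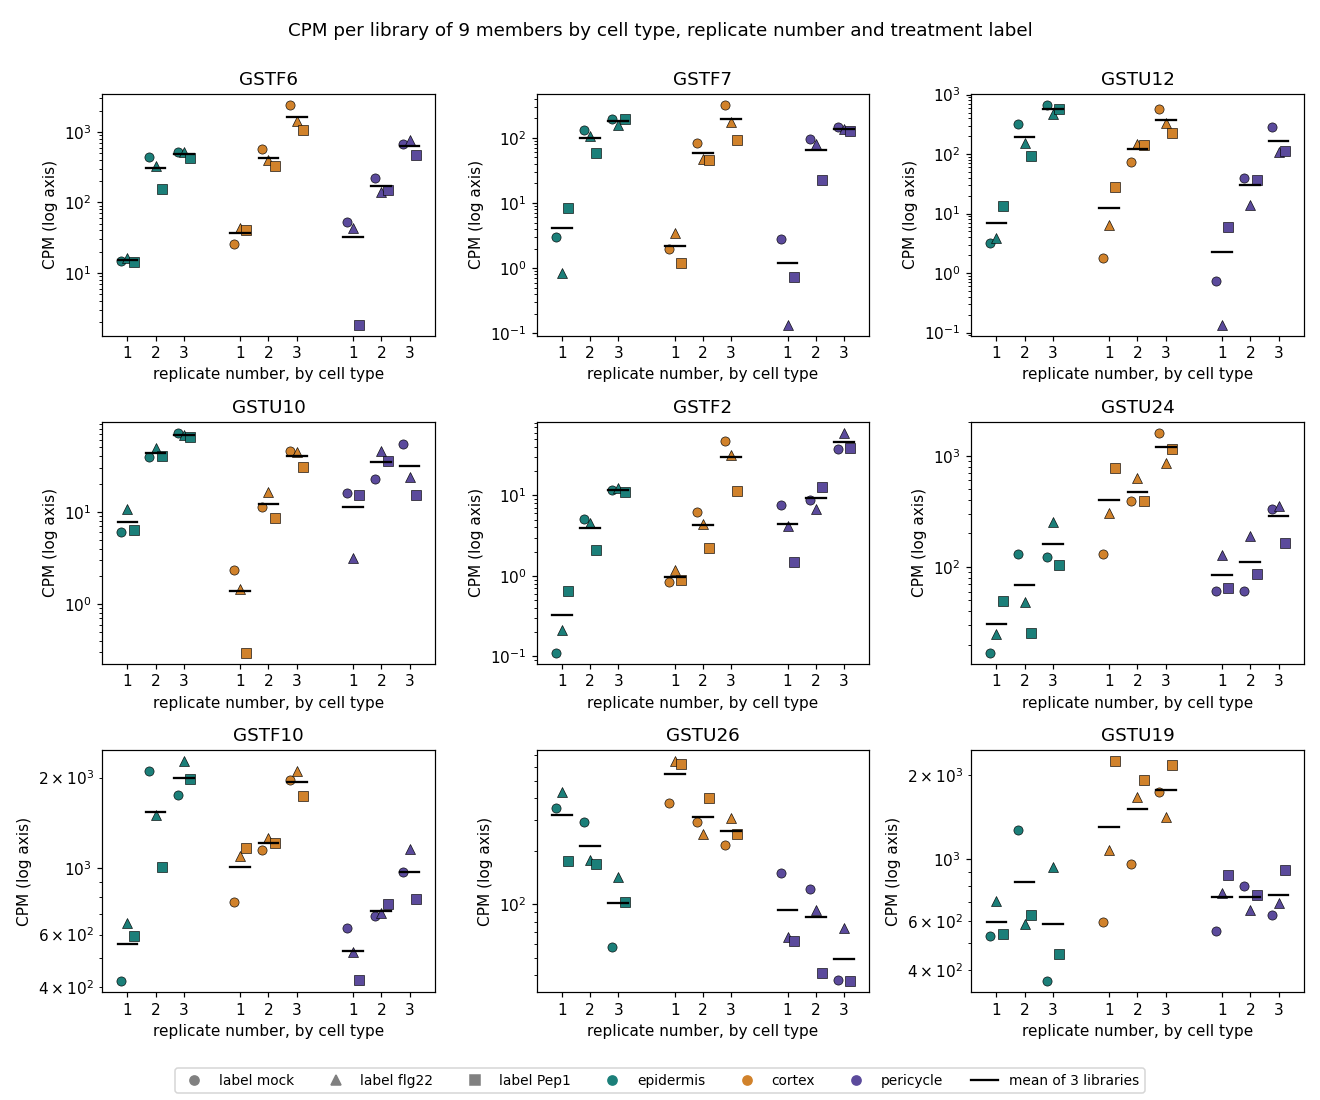
CPM (log axis) of 9 members in each library, by cell type and replicate number, with the label as the marker and the mean of 3 libraries as a bar. GSTF6, GSTF7 and GSTU12 are higher at number 3 than at number 1 in every cell type and within each label, whereas GSTU26 is lower at number 3 in the cortex.

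GSTU10 and GSTF2 were called in the epidermis and the cortex. In the cortex GSTU10 stood at 2.36, 1.47 and 0.297 CPM in the libraries numbered 1, at 11.3, 16.6 and 8.60 CPM in those numbered 2 and at 45.9, 45.0 and 30.9 CPM in those numbered 3. The log2 fold change for number 3 against 1 was 4.76 there (SE 0.46, adjusted p = 0.000142 by edgeR) and 3.18 in the epidermis (SE 0.27, adjusted p = 0.00104 by edgeR). In the pericycle, where it stood at 15.9, 3.13 and 15.2 CPM and then, numbered 3, at 55.1, 24.2 and 15.3 CPM, it had 1.54 (SE 0.79, adjusted p = 0.632 by edgeR). The difference of this change between cell types was not called (interaction, unadjusted p = 0.00217, edgeR adjusted p = 0.423). GSTF2, the camalexin-binding member, stood in the cortex at 0.832, 1.17 and 0.890 CPM in the libraries numbered 1, at 6.24, 4.44 and 2.23 CPM in those numbered 2 and at 48.0, 31.9 and 11.5 CPM in those numbered 3. It rose for number 3 against 1 by a log2 fold change of 4.83 in the cortex (SE 0.52, adjusted p = 0.000253 by edgeR) and 4.92 in the epidermis (SE 0.61, adjusted p = 0.00414 by edgeR). In the pericycle GSTF2 was at 7.67, 4.22 and 1.48 CPM in the libraries numbered 1 and at 37.9, 59.7 and 39.1 CPM in those numbered 3, which did not overlap and did not pass the test at 3.46 (SE 0.89, adjusted p = 0.12 by edgeR). GSTF3, the near copy of GSTF2, was called in the epidermis alone, where it stood at 1.33, 0.849 and 2.03 CPM, then at 3.36, 5.12 and 3.74 CPM, and then at 26.7, 19.4 and 28.1 CPM. Its log2 fold change for number 3 against 1 was 4.09 (SE 0.39, adjusted p = 0.00168 by edgeR).

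More of the remaining calls were in the cortex than elsewhere, although the test of a difference between cell types, given further on, called no member. GSTU13 stood in the cortex at 93.0, 89.99 and 110 CPM in the libraries numbered 1, at 109, 148 and 93.3 CPM in those numbered 2 and at 444, 345 and 340 CPM in those numbered 3, so that the libraries numbered 3 stood apart and the others overlapped. Its log2 fold change was 1.87 for number 3 against 1 (SE 0.23, adjusted p = 0.000446 by edgeR) and 1.64 for number 3 against 2 (SE 0.22, adjusted p = 0.00837 by edgeR). In the epidermis GSTU13 stood at 34.2, 27.4 and 60.5 CPM, then at 54.5, 60.4 and 35.5 CPM, and then at 168, 86.6 and 103 CPM. In the pericycle it stood at 152, 186 and 193 CPM, then at 137, 205 and 162 CPM, and then at 365, 314 and 301 CPM. The libraries numbered 3 lay above all others in both of these cell types too, and the changes against number 1 did not pass at 1.53 in the epidermis (SE 0.37, adjusted p = 0.0555 by edgeR) and 0.95 in the pericycle (SE 0.32, adjusted p = 0.36 by edgeR). GSTU1 had a like order in the cortex, at 12.5, 28.7 and 29.4 CPM, then at 27.6, 35.5 and 29.5 CPM, and then at 130, 68.9 and 138 CPM, with 2.24 for number 3 against 1 (SE 0.37, adjusted p = 0.00257 by edgeR). GSTU4 rose from 4.16, 21.1 and 47.4 CPM in the cortex libraries numbered 1 to 262, 146 and 202 CPM in those numbered 3, by 3.34 (SE 0.61, adjusted p = 0.00449 by edgeR). In the epidermis GSTU4 was called at 4.08 too (SE 0.80, adjusted p = 0.024 by edgeR), although the flg22 library numbered 3 stood at 72.3 CPM against 13.6 and 27.7 CPM in the other two, and the call was lost without it. GSTU3 rose in the cortex from 0.832, 0.879 and 4.15 CPM at number 1 to 26.4, 15.9 and 13.5 CPM at number 3, by 3.36 (SE 0.79, adjusted p = 0.0176 by edgeR). GSTU24 stood in the pericycle at 60.1, 129 and 64.7 CPM at number 1 and at 335, 356 and 165 CPM at number 3, a log2 fold change of 1.87 (SE 0.38, adjusted p = 0.0358 by edgeR), and was called in the cortex as well at 1.73 (SE 0.50, adjusted p = 0.0458 by edgeR).

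GSTF10, GSTU19, GSTF8 and GSTU25, the 4 members of highest mean level, had log2 fold changes of at most 1.84 for number 3 against 1. GSTF10 stood in the epidermis at 421, 656 and 592 CPM in the libraries numbered 1, at 2103, 1498 and 1005 CPM in those numbered 2 and at 1749, 2268 and 1985 CPM in those numbered 3, a log2 fold change for number 3 against 1 of 1.84 (SE 0.35, adjusted p = 0.0207 by edgeR). In the cortex it rose by 0.89 (SE 0.18, adjusted p = 0.00928 by edgeR), and the change of 0.93 in the pericycle did not pass (SE 0.29, adjusted p = 0.29 by edgeR). GSTF8 stood between 1459 and 3039 CPM over all epidermis libraries, with overlapping groups and 0.12 for number 3 against 1, and GSTU19 had -0.08 there. In the cortex these had 0.39 and 0.57, and neither was called. GSTU25 stood in the cortex at 144, 137 and 488 CPM, then at 118, 589 and 214 CPM, and then at 889, 469 and 949 CPM, so that the groups overlapped, and its 1.73 did not pass (SE 0.56, adjusted p = 0.0715 by edgeR). GSTU26 was the member called lower. In the cortex it stood at 377, 648 and 626 CPM in the libraries numbered 1, at 294, 251 and 399 CPM in those numbered 2 and at 218, 310 and 252 CPM in those numbered 3, a log2 fold change of -1.13 (SE 0.22, adjusted p = 0.00752 by edgeR). It had -1.63 in the epidermis (SE 0.42, adjusted p = 0.0631 by edgeR) and -0.78 in the pericycle (SE 0.47, adjusted p = 0.722 by edgeR). The remaining calls for number 3 against 1 were GSTU9 and GSTU11 in the epidermis (3.30 and 1.87) and GSTF9, GSTU7, GSTU16 and GSTU22 in the cortex (1.11, 1.43, 2.22 and 0.96).

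Over all members tested, the median log2 fold change for number 3 against 1 was 1.28 (epidermis), 0.96 (cortex) and 0.36 (pericycle), where the medians over all genes tested were 0.03, -0.01 and -0.04. By class, calls in either direction took 5 of 8 phi and 5 of 22 tau members in the epidermis (5.33% of all genes). In the cortex they took 5 of 9 and 11 of 24 (12.3%), with 10 of the 11 higher and 1 lower. In the pericycle they took 2 of 9 and 2 of 24 (0.588%). The libraries numbered 3 lay wholly above those numbered 1 for 15 of 30 members in the epidermis (13% of all genes), 16 of 33 in the cortex (16.4%) and 12 of 33 in the pericycle (6.63%), and wholly below them for 2 members in each (11.6%, 12.4% and 7.33%). As a share of the nuclear counts, the members together took 0.450 to 0.781% in cortex libraries numbered 1, 0.698 to 0.849% in those numbered 2 and 0.980 to 1.31% in those numbered 3. By label the cortex shares overlapped, at 0.450 to 1.31% for mock, 0.590 to 0.980% for flg22 and 0.698 to 1.07% for Pep1. An interaction test of the number differences with cell type called 0 of 35 members in edgeR both for number 2 against 1 and for number 3 against 1 (0.00522% of all genes in each), and DESeq2 also called 0 (0.402% and 0.721%). Without adjustment, 1 and 4 members had a p under 0.05 (5.14% and 6.32%). Markers of the sorted cells also varied with the number. The mean of GL2 in the epidermis was 241, 165 and 108 CPM at numbers 1, 2 and 3, that of AED3 in the cortex was 245, 192 and 184 CPM, and that of PHO1 in the pericycle was 1062, 838 and 743 CPM. Between numbers 3 and 1, 0 of 4 epidermis markers tested in the epidermis, 0 of 1 cortex marker in the cortex and 0 of 4 pericycle markers in the pericycle were called. Of the markers of other cell types, WER, a gene of non-hair cells, was called lower in the cortex at -2.52 (SE 0.46, adjusted p = 0.00476 by edgeR), and 0 others were called in any cell type. The 4 non-hair markers summed to 37.4 to 56.6 CPM in cortex libraries numbered 1 and to 22.02 to 29.8 CPM in those numbered 3, and the 3 phloem and xylem markers to 2.36 to 3.52 CPM and 0.522 to 0.902 CPM. Both sums were thus lower at number 3. The sums overlapped between these numbers in the cortex for the 3 endodermis markers (12.6 to 28.7 and 20.99 to 27.5 CPM), the 4 pericycle markers (30.8 to 47.3 and 19.2 to 36.0 CPM), the 3 root hair markers (0 to 9.57 and 0.451 to 1.04 CPM) and the 2 root cap markers (0.593 to 18.0 and 0.676 to 9.31 CPM). In the epidermis the root hair markers summed to 7.84 to 12.1 CPM at number 1 and 0.422 to 2.68 CPM at number 3, and the non-hair markers to 373 to 611 and 228 to 321 CPM. In the pericycle its own 4 markers summed to 1056 to 2008 and 622 to 1197 CPM. The part of these cells in the result was not tested.

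**Figure D3:**
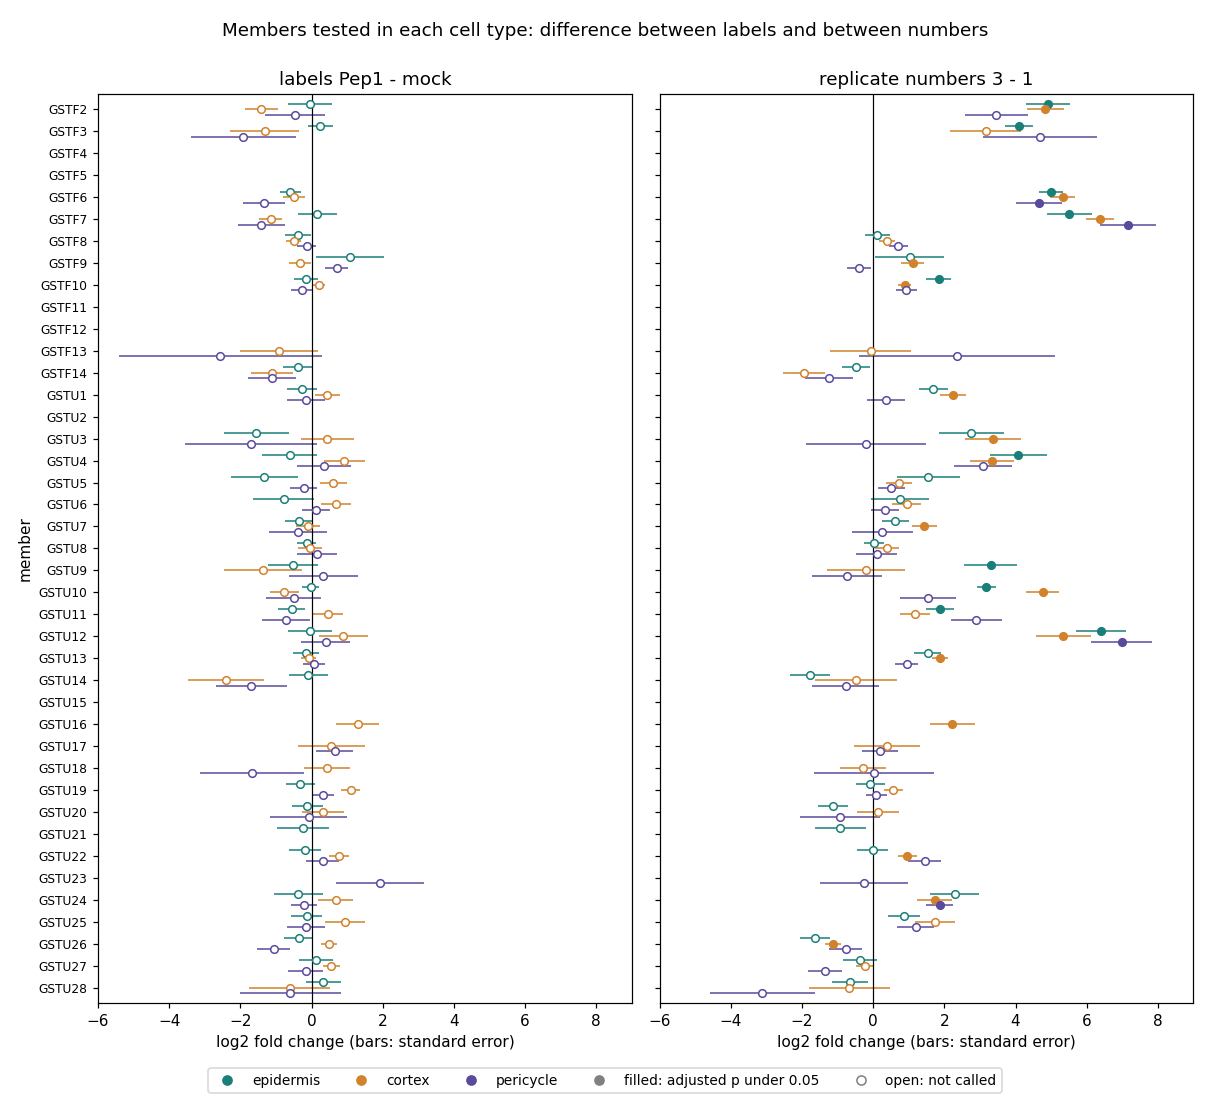
log2 fold change with its standard error for each member tested, for the libraries labelled Pep1 against mock and for those numbered 3 against 1, in each cell type, with members called at an adjusted p under 0.05 filled. No point is filled for the label, whereas 10, 16 and 4 are filled for the number in the epidermis, cortex and pericycle.

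Neighbours on a chromosome did not all move the same way. The 41 genes form 9 runs of members no more than 20000 bases apart, which hold 29 members, and 12 members stand alone. In the first run, GSTF7 and GSTF6 rose, and GSTF5 and GSTF4, just beyond them on the same strand (chr1:662963-664290 and chr1:665119-666471), were too low to test. Of the 46 counts of GSTF5, 44 lay in the libraries numbered 3, whereas 15, 7 and 8 of the 30 counts of GSTF4 lay in those numbered 1, 2 and 3. In the run of GSTU24, GSTU25 and GSTU26 (chr1:5869543-5876620), the first was called higher and the last lower at number 3 in the cortex. Of the 7 neighbours GSTU7 to GSTU1 on chromosome 2 (12617936 to 12632538), GSTU7, GSTU4, GSTU3 and GSTU1 were called higher there. GSTU6 was not called, nor was GSTU5 at 0.72 (SE 0.37, adjusted p = 0.25 by edgeR), and GSTU2 was too low to test. In the run of 5 from GSTU23 to GSTU19 on chromosome 1 (29467412 to 29488007), GSTU22 alone was called, at 0.96 in the cortex. GSTU23 and GSTU21 did not pass the count filter in that cell type.

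**Figure D4:**
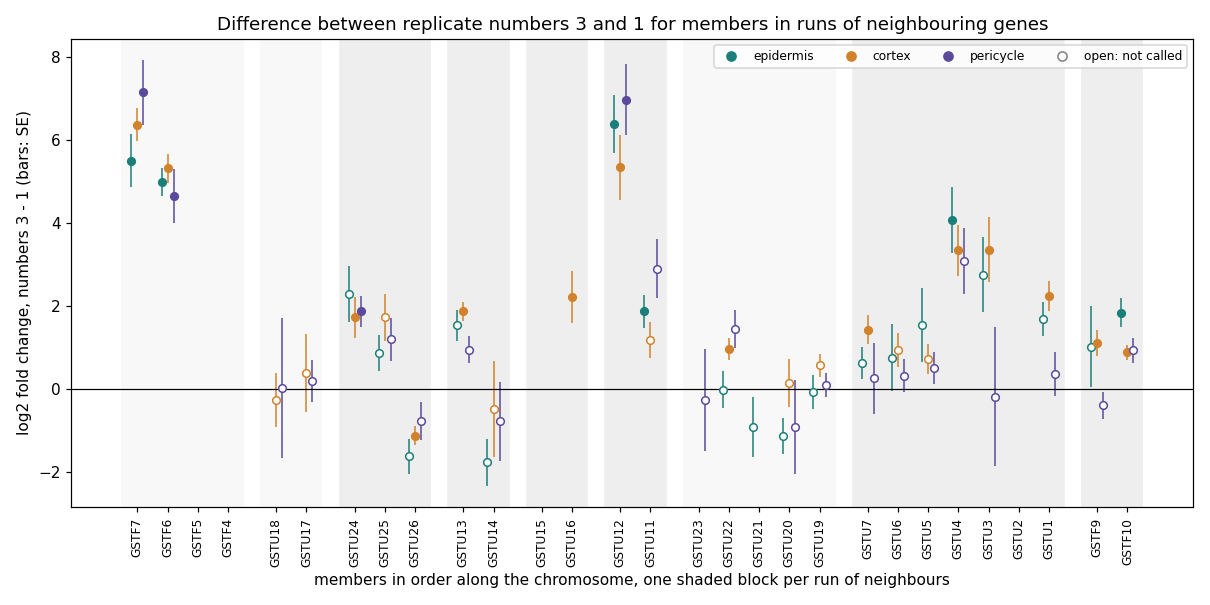
log2 fold change for number 3 against 1 with its standard error for the members of the 9 runs of neighbours, in order along the chromosome, in each cell type. Within the run of GSTF7 and GSTF6 the tested members are all high, whereas in that of GSTU24 to GSTU26 the values fall from 1.73 to -1.13 in the cortex.

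Cell types differed in which members they expressed. The epidermis libraries carry facility numbers that no library of the other cell types carries, so facility number and cell type cannot be told apart in comparisons with the epidermis. Cortex and pericycle share facility numbers only in part. Over all 27 libraries, with label and number as terms, 8 of 35 members were higher and 14 lower in the epidermis than in the cortex (19% and 19.9% of all genes). Against the pericycle the epidermis had 10 higher and 11 lower (22.1% and 23.2%), and the cortex had 14 higher and 8 lower than the pericycle (20.5% and 22.1%). In either direction 62.9%, 60% and 62.9% of the members tested were called, against 38.8%, 45.4% and 42.6% of all genes. In the fits by cell type GSTU16 passed the count filter in the cortex alone, GSTU21 in the epidermis alone and GSTU23 in the pericycle alone. GSTF13, GSTU17 and GSTU18 passed in all but the epidermis. These members entered the fit over all libraries through the cell types where they are higher, so their calls between cell types are not independent of the filter. Restricted to the 9 mock-labelled libraries the counts were 10, 8 and 7 members, and the share of all genes is not given for that fit.

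Several members were nearly confined to some of the cell types. GSTU17 (ERD9), which acts in light and drought responses, had a median of 0.125 RPKM over the 9 epidermis libraries (0 to 0.771), 26.3 RPKM in the cortex (14.7 to 115) and 37.4 RPKM in the pericycle (15.3 to 98). The epidermis was lower than the cortex by a log2 difference of -7.88 (SE 0.62, adjusted p = 3.26e-11 by edgeR), and no epidermis library reached any other. GSTU18, which overlaps GSTU17, had -4.66 in the same comparison (SE 0.78, adjusted p = 2.12e-05 by edgeR). Both members failed the count filter in the epidermis, so these calls are not independent of the filter. GSTF9 was highest in the pericycle, at a median of 281 RPKM (190 to 602), against 23.04 RPKM in the cortex (13.7 to 61.6) and 7.01 RPKM in the epidermis (0.172 to 12.8). The 3 groups of 9 did not overlap, and the cortex was below the pericycle by -3.41 (SE 0.40, adjusted p = 1.18e-07 by edgeR). Its neighbour GSTF10 was higher in the cortex than in the pericycle, by 0.90 (SE 0.17, adjusted p = 0.000134 by edgeR), and its difference between epidermis and cortex was not called, at -0.13 (SE 0.17, adjusted p = 0.576 by edgeR). GSTU23 was a low pericycle gene, at a median of 13.8 RPKM there (0.543 to 55.8) and at most 2.09 RPKM elsewhere. GSTU21 was a low epidermis gene, at 2.84 RPKM (0.465 to 11.3) and at most 0.983 RPKM elsewhere.

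Among abundant members the cortex was often highest. GSTU24 had a median of 530 RPKM in the cortex (109 to 1335), 41.4 RPKM in the epidermis (14.1 to 213) and 108 RPKM in the pericycle (50.05 to 297), with -3.14 for epidermis minus cortex (SE 0.35, adjusted p = 2.84e-08 by edgeR). Its neighbour GSTU25 was highest in the epidermis, with medians of 970 RPKM in the epidermis, 462 RPKM in the cortex and 288 RPKM in the pericycle, and 1.38 for epidermis minus cortex (SE 0.33, adjusted p = 0.00132 by edgeR). GSTU26, next in that run, was higher in the cortex than in the pericycle by 2.34 (SE 0.25, adjusted p = 1.81e-08 by edgeR). The cortex also exceeded both other cell types for GSTF6, GSTU4, GSTU5, GSTU6, GSTU8, GSTU11, GSTU16 and GSTU19. For GSTU19 the median was 1491 RPKM in the cortex (530 to 1997), 521 RPKM in the epidermis and 661 RPKM in the pericycle, and these ranges overlapped. The epidermis exceeded both others for GSTU7, GSTU21, GSTU22 and GSTU25. GSTF14 was lowest in the cortex, with 2.41 for epidermis minus cortex (SE 0.32, adjusted p = 6.27e-07 by edgeR), and GSTF3, GSTU10 and GSTU23 were also lower there than in both other cell types. For GSTU16, GSTU21 and GSTU23 such calls are not independent of the count filter, as given above. GSTU12 stood at medians of 156 RPKM in the epidermis, 142 RPKM in the cortex and 36.6 RPKM in the pericycle, with wide ranges that follow its values by number, and was higher in the epidermis than in the pericycle by 2.18 (SE 0.44, adjusted p = 0.000145 by edgeR). The epidermis libraries also held root cap transcripts (SMB at 23.4 to 64.4 CPM), and the pericycle libraries held phloem transcripts, as given above. The part of such cells in the differences was not tested.

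**Figure D5:**
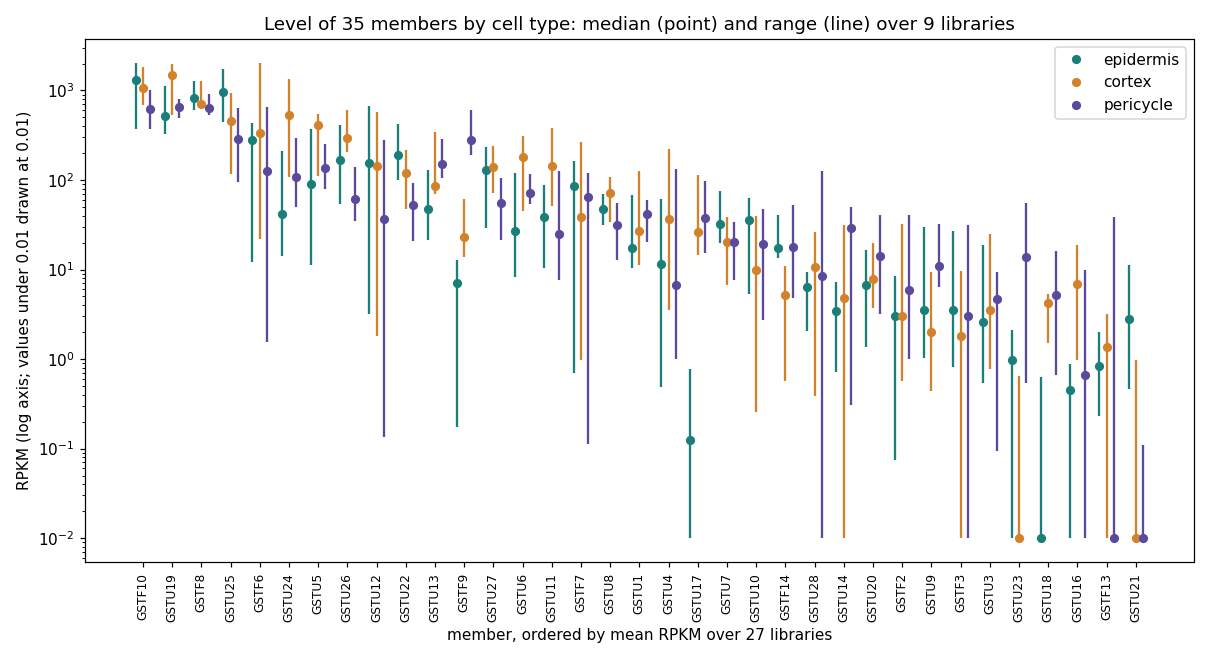
Median level (RPKM, log axis) with the range over the 9 libraries of each cell type, for the 35 members with a mean above 1 RPKM. GSTU17 and GSTU18 lie lower in the epidermis than in the other cell types, GSTF9 and GSTU23 stand highest in the pericycle, and GSTU24 stands highest in the cortex.

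Other genes of glutathione use were read from lists of 12 glutathione transferases of other classes, 12 genes of glutathione synthesis and reduction, 9 of conjugate transport and turnover, and 4 of the factors TGA2, TGA5, TGA6 and SCL14, which control detoxification genes. Between labels 0 of these genes were called in any cell type in edgeR. For number 3 against 1, 0 of 9 tested of the other classes, 1 of 11 of synthesis and 1 of 8 of transport were higher in the epidermis (3.64% of all genes). In the cortex 1 was higher and 1 lower of 11 of the other classes, 2 higher and 1 lower of 11 of synthesis, and 2 higher of 8 of transport (6.62% of all genes higher and 5.65% lower). In the pericycle 0 were called (0.447% and 0.141%), and of the 4 factors 0 were called in any cell type. GSH1, which makes gamma-glutamylcysteine, the first step of glutathione synthesis, stood in the cortex at 464 to 962 CPM in the libraries numbered 1, at 810 to 1011 CPM in those numbered 2 and at 1841 to 2447 CPM in those numbered 3. GSH1 was higher by 1.56 there (SE 0.24, adjusted p = 0.00179 by edgeR) and by 1.82 in the epidermis (SE 0.26, adjusted p = 0.00786 by edgeR). GSH2, which completes glutathione, was higher in the cortex by 1.56 (SE 0.24, adjusted p = 0.00159 by edgeR). ABCC3, a vacuolar transporter of glutathione conjugates, was higher in the cortex by 2.94 (SE 0.63, adjusted p = 0.0113 by edgeR) and in the epidermis by 2.36 (SE 0.55, adjusted p = 0.0478 by edgeR). In the cortex GGT1, which cleaves glutathione outside the cell, had 0.92 (edgeR adjusted p = 0.0147), and GSTZ1, an enzyme of tyrosine breakdown, had 0.76 (edgeR adjusted p = 0.0189). DHAR1, which regenerates ascorbate, and the peroxidase gene GPX2 were lower, at -1.85 (edgeR adjusted p = 0.0159) and -0.93 (edgeR adjusted p = 0.0354). Across cell types DHAR1 stood at 0.22 to 2.76 CPM in the epidermis, 4.73 to 43.0 CPM in the cortex and 138 to 354 CPM in the pericycle, with -8.35 for epidermis minus pericycle (SE 0.38, adjusted p = 1.4e-16 by edgeR).

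The upstream letters were also counted by call. A W-box match lay before 15 of the 19 members called between some pair of numbers and before 6 of the other 22, and among all nuclear genes before 37.6% of those called between numbers and 28% of those tested and not called. TGACG lay before 9 of the 19 and 5 of the 22, and before 20.8% and 19.1% of those genes. The other 22 include the members too low to test. Of the stretches printed above, those of GSTF7 and GSTU12 belong to the 19 and that of GSTU19, with 2 W-box matches, to the 22. These shares are given without a test.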

How the data were processed

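RNA of sorted root cells was measured in 27 libraries. The authors deposited unscaled whole-number counts for each gene, made with STAR and the counter LiBiNorm without regard to strand over Araport annotation on TAIR10, whereas the submitters' processing notes name TopHat2 2.0.14 and HTSeq. Of the 34262 gene entries, 1429 with no locus in the TAIR10.1 annotation, 152 mitochondrial and 133 plastid genes, 345 ribosomal protein genes and 5 rRNA or overlapping genes were left out, and 32198 were offered to the tests. Another 5 entries name no gene and held 39.3 to 79.8% of a library (median 70.9%). Gene counts per library ran from 4172741 to 17188823, which limits precision for low members.

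Each cell type was fitted on its 9 libraries by edgeR 4.0.16 under R 4.3.3, with limma 3.58.1, with label and replicate number as terms, TMM and filterByExpr (minimum count 10, total 15). Cell types and interactions were fitted over all 27. P-values were adjusted over all genes by Benjamini-Hochberg at 0.05, and standard errors were taken from fold change and F statistic. Alternatives were DESeq2 1.42.0, RLE size factors, no filter, ribosomal genes kept, other model terms, 1 facility number, mock libraries alone, and each library left out in turn. The procedure was tested on simulated data. Members with values per library are the 12 with the smallest adjusted p between labels or numbers and the 6 of highest mean RPKM, and every other member is counted. GSTU3, GSTU9, GSTU21, GSTU23 and the others described beyond these were picked after their values were seen. The members, the lists and the comparisons between numbers were chosen with earlier results of these data known. Same-group libraries differed from each other by more than counting noise, and p-values cover only the spread between these libraries.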

Additional observations from a re-analysis of the deposited data

How the results depend on the processing

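No member's called direction reversed under any alternative run. DESeq2 called 1 member for flg22 against mock in the pericycle (1.66% of all genes) and 2 for Pep1 in the cortex (4.81%). For numbers 3 against 2 it called 2, 11 and 3 in the epidermis, cortex and pericycle (3.24%, 5.01% and 0.729%). It also called 8 for numbers 2 against 1 and 16 for numbers 3 against 1 in the epidermis, and 9 for numbers 3 against 1 in the pericycle. Without a filter on low counts edgeR called 5 members for Pep1 in the cortex (3.38% of all genes) and 8 there for numbers 2 against 1. It called 7 for numbers 3 against 1 in the pericycle, and 1, 17 and 2 for numbers 3 against 2. The share of all genes is not given for the other counts in this paragraph, so they cannot be set against it. With RLE size factors, with ribosomal genes kept, or with no label term, the pericycle count for numbers 2 against 1 was 1. With no label term the cortex and epidermis counts for numbers 3 against 2 were 4 and 1, and with the facility number as a term they were 3 and 1. With only the mock-labelled libraries the cell type counts were 10, 8 and 7. The causes were not tested, and that last fit held both fewer libraries and no label term.

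Same-numbered libraries of different labels correlated in their deviations at 0.30 to 0.66 (epidermis, numbers 1 and 3) and 0.32 to 0.48 (cortex, numbers 1 and 3), but number 2 reached down to -0.19 and the pericycle to -0.06, so that not every pair deviated together. Libraries of different numbers correlated at -0.65 to 0.25. Without the replicate block 0 members were called between labels in every cell type and in the label interactions, and the cortex and pericycle differed in 14 members in place of 22.

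Leaving out each library in turn gave 1 to 5, 3 to 5 and 1 to 3 members for numbers 2 against 1 in the epidermis, cortex and pericycle. It gave 6 to 13, 9 to 17 and 3 to 6 for numbers 3 against 1, and 0 to 0, 0 to 12 and 0 to 1 for numbers 3 against 2, the 1 without pericycle Pep1 replicate 1. Cell type counts ran from 20 to 23, 17 to 23 and 19 to 22, and all label and interaction counts stayed at 0. RLE moved the median of all genes between cortex and pericycle from -0.07 to -0.19. Members below the count filter could not be compared at this depth.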
